A study of Mus musculus with 24 samples.

Results

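Between embryonic days E12.5 and E16.5 the mouse diaphragm goes from paired folds of mesenchyme to a sheet of striated muscle, and this comparison sets 8 arrays of E16.5 diaphragm against 8 arrays of E12.5 folds, 16 of the 24 arrays of the series. The arrays were chosen by the stage given in their titles, and 19351 genes were compared, each through 1 probe set (the brightest one, where a gene had several). All samples were C57BL/6J embryos with no treatment or altered allele named. At E12.5 the tissue was pleuroperitoneal fold, the paired ridge on either side of the body cavity, and at E16.5 it was diaphragm after muscle had filled it, although the titles use the fold's abbreviation at both ages. Tissue was cut by laser capture from mid-thoracic cryosections, transverse at E12.5 and sagittal at E16.5, so plane of section and age cannot be told apart. Which embryo, and how many, each sample came from is not stated, so p-values measure the spread between these samples, which may be partly technical. The remaining 8 arrays, folds of E11.5, enter only through the shared estimate of the spread and as context for single genes.

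As background, the folds supply the connective tissue of the diaphragm. Muscle precursors enter them from the somites, divide, fuse to fibers and spread over the sheet, and motor axons of the phrenic nerve follow. Fiber maturation replaces isoforms shared with other tissues by muscle isoforms, builds the sarcomere, the sarcoplasmic reticulum and mitochondria, and goes with withdrawal from the cell cycle. The comparison asks which genes mark the muscularised sheet and which mark the fold.

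Values are log2 intensities. For a stage, 3 values joined as lowest, median and highest of its 8 arrays are given. A change is the difference of the stage means, E16.5 minus E12.5, ± its standard error, and "rose", "fell" or "changed" is used for an adjusted p under 0.05 in limma (Benjamini-Hochberg over all 19351 genes). By that rule 5241 genes changed, 27.1% of those tested: 2223 rose (11.49%) and 3018 fell (15.6%), and 6918 genes had an unadjusted p under 0.05. The balance depends on the scaling: with every array centred on its 75th percentile 2547 rose and 2457 fell. A change of 2-fold or more was seen in 702 genes that rose (3.63%) and 341 that fell (1.76%), together 1043 (5.39%). Rises reached further than falls: 215 genes rose 4-fold or more and 27 fell as much, and at 16-fold the counts were 32 and 3. In 1941 changed genes (10.0%) no array of one stage overlapped the other stage, 904 of them higher (4.67%) and 1037 lower (5.36%). The median change over all genes was -0.024. In 486 changed genes the change is a lower bound at best, because more than 4 arrays of the dimmer stage lay under the quartile of their dimmest genes (6.4 to 6.64), where signal is not told from background, or because the gene was one of the 20 brightest in more than 4 arrays of the brighter stage.

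**Figure D1:**
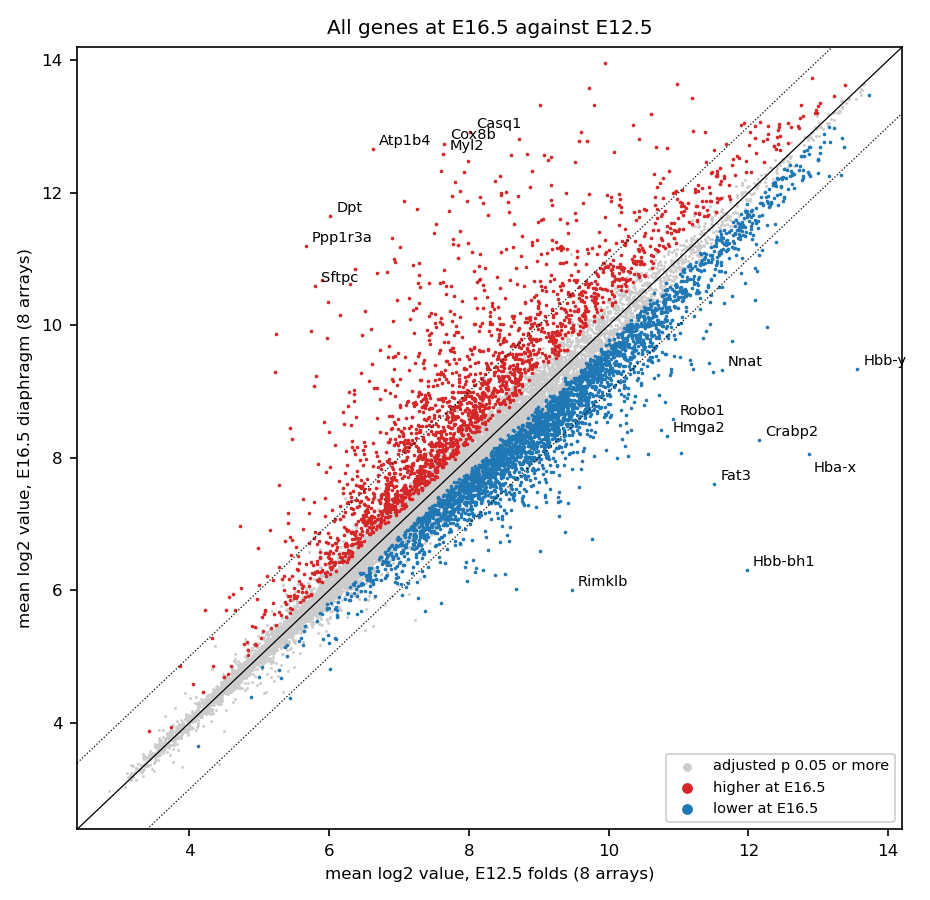
Mean log2 value of each of 19351 genes in the 8 E16.5 arrays (vertical axis) against the 8 E12.5 arrays (horizontal axis). Red points are the 2223 genes that rose, blue points the 3018 that fell, gray points those with an adjusted p of 0.05 or more; the solid line marks equal means and the dotted lines a 2-fold difference. Genes above the upper dotted line lie farther out than those below the lower one, except for the embryonic globins at the right.

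The labelled tissues were checked against their markers, and RNA of other tissues was present at both ages. The mean over 55 sarcomere genes was 10.92 or more in every E16.5 array and 9.86 or less in every E12.5 array. Wt1, a regulator of the fold, ran the other way and lay at 9.95, 10.42 and 10.71 at E12.5 and 8.20, 9.06 and 9.25 at E16.5, with no overlap. Other fold markers were divided. Of 22 mesothelium genes, Wt1 included, 7 fell, 3 rose and 12 did not pass. Of the mesenchyme markers Pdgfra was lower at E16.5 (-1.59) and Prrx1 higher (0.95). Liver transcripts were uneven, with a mean over 20 hepatocyte genes of 11.6 in E12.5 replicate 2 and 9.38 in replicate 4; the remaining 6 folds had 7.31 to 8.22 and the E16.5 arrays 8.86 to 10.87. The same E12.5 replicate 2 had the lowest sarcomere mean of its stage (7.81) and E12.5 replicate 3 the highest (9.86). At E16.5 replicates 1 to 4 stood apart from 5 to 8 with higher sarcomere means (11.57 to 11.78 against 10.92 to 11.28) and lower cell cycle means (8.74 to 8.83 against 9.11 to 9.46). Some lists are given for both E16.5 sets below, and lists not given by set may differ between the sets as well. Ribosome biogenesis had a median of -0.76 with replicates 1 to 4 alone and -0.42 with 5 to 8 alone. Clock genes had 0.083 with 5 to 8 alone and 0.29 with all arrays. Single genes whose call or size differs with the arrays described here are gathered near the end. Genes named beyond the leading ones of each list were chosen for their role after their values were seen. In bulk tissue fewer cells of a type and less RNA per cell cannot be told apart. Without E12.5 replicates 2 and 3, 5008 genes changed, and 4657 of them were among the 5241 with the same direction. With replicates 1 to 4 of E16.5 alone 4918 changed, and with 5 to 8 alone 3479.

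**Figure D2:**
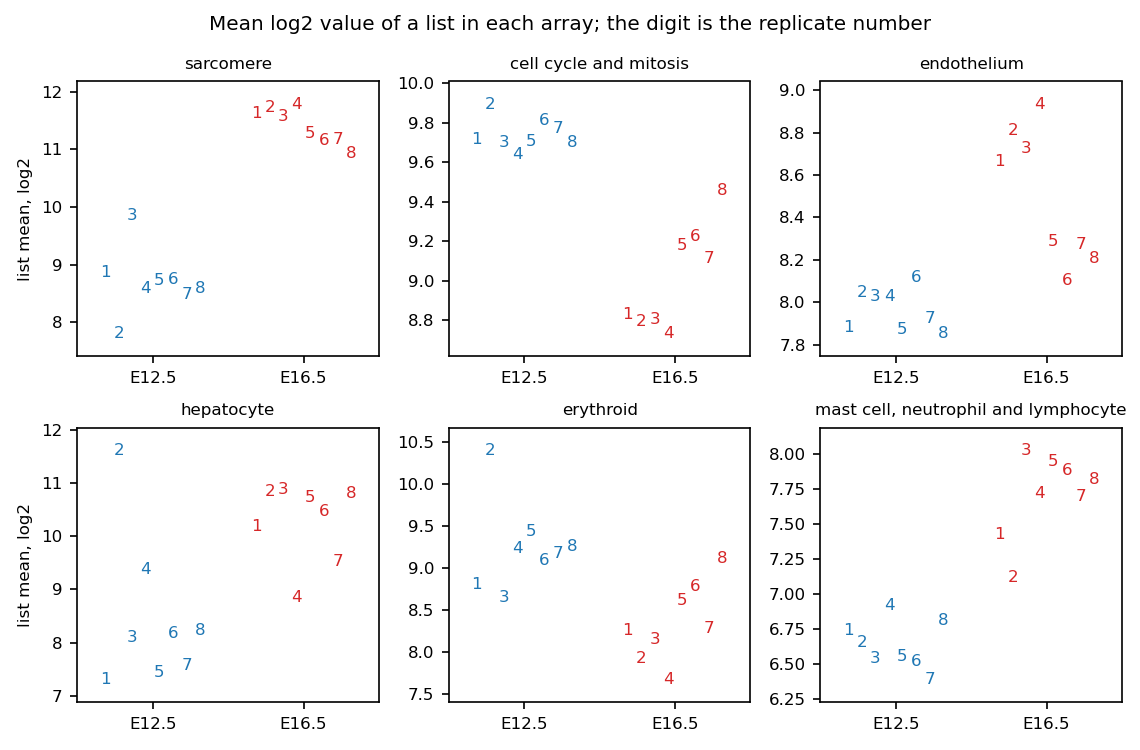
Mean log2 value over the genes of 6 lists in each E12.5 (blue) and E16.5 (red) array, each array drawn as its replicate number; the vertical scale differs between panels. Sarcomere and cell cycle means separate the stages, E16.5 replicates 1 to 4 lie apart from 5 to 8 in these and in endothelium, and E12.5 replicate 2 is highest for hepatocyte and erythroid genes.

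The largest rise was in Atp1b4, a muscle protein related to the beta subunits of the sodium pump. It lay at 5.86, 5.98 and 10.68 at E12.5 and at 12.46, 12.61 and 12.89 at E16.5 (6.03 ± 0.45, adjusted p = 1.56e-10). The highest E12.5 value was that of replicate 3, and the other 7 folds lay at 6.32 or less, below the lower quartile of the arrays, so the change is a lower bound at best. Next were Dpt, dermatopontin of the extracellular matrix (5.64 ± 0.47; 4.94, 5.66 and 9.84, then 10.96, 11.74 and 11.90), and Ppp1r3a, which targets protein phosphatase to glycogen in muscle (5.53 ± 0.28; 5.10, 5.23 and 7.91, then 10.57, 11.21 and 11.54). Both are lower bounds at best, and E12.5 replicate 3 was again the highest of its stage in both. Replicate 5 was a high fold too for some genes, highest of its stage for Myl2 (11.63) and Myl3 (9.63), and close to replicate 3 for Cox8b (9.43 and 9.65). It was also the highest fold for the heart genes Myl7 (9.38) and Myh6 (7.38). For the skeletal muscle genes Acta1 (9.33), Ckm (7.95) and Myh8 (8.51) it lay within the range of the other folds. Whether heart RNA is part of its Myl2 and Myl3 values was not tested. The 15 largest rises also held Cox8b (5.10 ± 0.34), Cox7a1 (4.499 ± 0.29), Ckmt2 (4.47 ± 0.32) and Ampd1 (4.72 ± 0.27), enzymes or subunits of muscle energy supply, and Casq1 (4.89 ± 0.37) and Trdn (4.51 ± 0.32) of the sarcoplasmic reticulum. Myl2 (4.94 ± 0.56; 6.16, 6.65 and 11.63, then 12.51, 12.57 and 12.64), a myosin light chain, Lmod2 (4.42 ± 0.21) and Cmya5 (4.80 ± 0.18) belong to the contractile apparatus and the Z-disc region. Mettl21e (4.79 ± 0.32), a methyltransferase of muscle, and Asb12 (4.63 ± 0.31), a substrate receptor of ubiquitin ligases, complete the muscle genes among them. The remaining gene of the 15 was Sftpc, the surfactant protein C of lung epithelium (4.80 ± 0.48), described with the other tissues further on. Of these 12, Ckmt2, Mettl21e, Asb12 and Sftpc are also lower bounds at best.

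**Figure D3:**
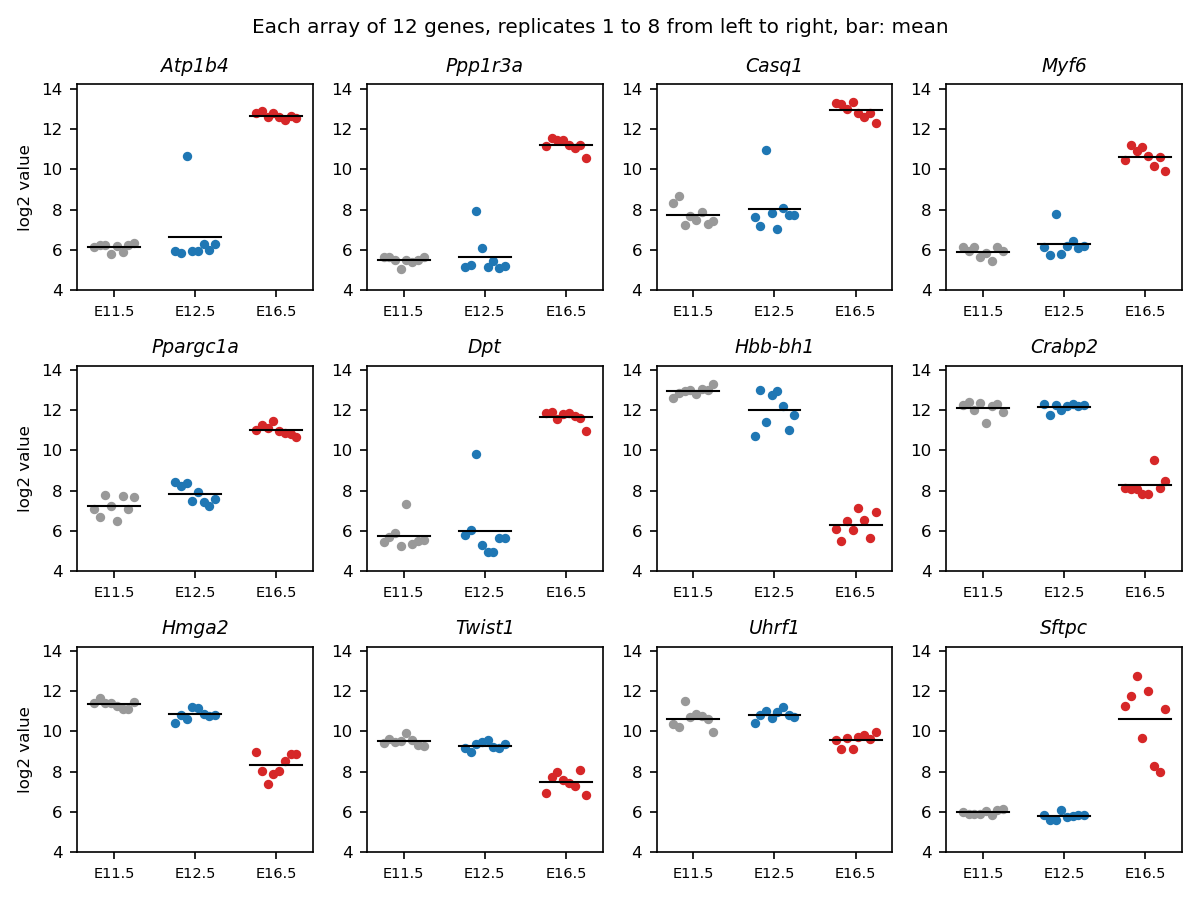
Log2 values of 12 genes in every array of E11.5 (gray), E12.5 (blue) and E16.5 (red), replicates 1 to 8 from left to right within a stage, with the stage mean as a bar. E12.5 replicate 3 is high for Atp1b4, Ppp1r3a, Casq1, Myf6 and Dpt, and Sftpc spreads from 8.001 to 12.73 over the E16.5 arrays.

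The promoter windows of Dpt and Ppp1r3a are shown because they are the genes with the largest rises whose windows hold at least 2 kinds of the motifs searched, CCAAT aside. A window runs from 250 bases before to 50 bases after the annotated start (RefSeq, GRCm38.p6) and is written 5′ to 3′ on the gene's strand, with motif matches in capitals. The motifs, searched on both strands, were the TATA box (TATAAA), the CCAAT box, the muscle E-box (CAGCTG), the MCAT element (CATTCC), the MEF2 motif and the CArG box by name, the E2F core (TTGGCGC or else TTCCCGC), the CHR element (TTTGAA), the half-site of estrogen-related receptors (AAGGTCA) and the NRF1 core (GCATGCG). A match describes letters and is not a site.
Dpt: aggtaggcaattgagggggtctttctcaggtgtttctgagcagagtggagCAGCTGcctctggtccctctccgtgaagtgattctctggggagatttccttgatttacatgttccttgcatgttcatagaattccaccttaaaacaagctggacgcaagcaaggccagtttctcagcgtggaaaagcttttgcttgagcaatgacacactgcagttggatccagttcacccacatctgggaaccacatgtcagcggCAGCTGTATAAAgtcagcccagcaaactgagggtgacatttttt
Ppp1r3a: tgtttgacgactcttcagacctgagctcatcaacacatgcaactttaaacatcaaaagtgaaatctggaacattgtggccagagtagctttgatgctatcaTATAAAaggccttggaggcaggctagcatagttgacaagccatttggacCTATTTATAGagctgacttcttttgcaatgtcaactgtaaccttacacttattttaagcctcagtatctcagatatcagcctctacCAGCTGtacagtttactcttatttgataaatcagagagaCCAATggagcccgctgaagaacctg
The Dpt window (chr1:164796413-164796712, plus strand) holds 2 muscle E-boxes and 1 TATA box that directly follows the second E-box. The Ppp1r3a window (chr6:14755225-14755524, minus strand) holds a MEF2 match that overlaps one of its 2 TATA boxes, an E-box and a CCAAT.

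Nearly all sarcomere genes rose. Of 55 measured, 54 rose (98.2%, against 11.49% of all genes) and 0 fell, 47 of them 2-fold or more, and 50 without overlap between the stages. Over all genes 3.63% rose 2-fold or more and 4.67% rose without overlap. The list's median change was 2.72, against -0.024 over all genes. The 1 gene not past the threshold was Nebl, a nebulin relative of heart and other tissues (0.06 ± 0.099, adjusted p = 0.738). Thick filament genes rose across fiber types: Myh8, the perinatal myosin heavy chain, by 4.31 ± 0.43, Myh7, the slow one, by 2.76 ± 0.18, Myh3, the embryonic one, by 2.54 ± 0.36, and the adult fast chains Myh4, Myh1 and Myh2 by 2.58 ± 0.14, 2.25 ± 0.32 and 1.34 ± 0.20. These chains share much sequence, and whether probes of one also measure another was not tested. Myh8 lay at 7.30, 8.76 and 12.34 at E12.5 and at 13.05, 13.28 and 13.56 at E16.5. Myosin light chains Myl1 (4.19 ± 0.33), Myl3 (4.14 ± 0.28) and Mylpf (2.23 ± 0.35, a lower bound at best) and the myosin-binding protein Mybpc1 (4.10 ± 0.30) rose with them. Thin filament and Z-disc genes followed, with Lmod2, which elongates actin filaments, at 6.47, 6.71 and 8.11 and then 10.69, 11.31 and 12.02, Acta1, skeletal alpha-actin, up by 3.55 ± 0.38, Actn2 by 3.19 ± 0.37 and the giant proteins Ttn and Neb by 2.59 ± 0.29 and 2.68 ± 0.29. Smpx, a small protein of the costamere region, followed Myl2 and Lmod2 in size (4.38 ± 0.34). The smallest rise was that of the tropomyosin Tpm1, from 12.14, 12.48 and 12.69 to 12.82, 13.05 and 13.16. Actc1, cardiac actin and the main actin of early muscle, went from 11.42, 13.01 and 13.59 to 13.63, 13.75 and 13.78 and was among the 20 brightest genes of most E16.5 arrays, so its rise (0.82 ± 0.21) is a lower bound at best. With E16.5 replicates 1 to 4 alone the list's median was 3.09 and with 5 to 8 alone 2.47, with 53 and 51 genes higher.

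Promoter windows of sarcomere genes held muscle motifs in a larger share than windows in general. The 42 sarcomere genes with a window had 52 windows, and 17.3% held a CArG box, the motif of serum response factor, against 1.41% of 18963 windows of all measured genes. For MEF2 the shares were 13.5% and 2.52%, for the E-box bound by the MyoD family 32.7% and 16.2%, for MCAT, bound by TEAD factors, 30.8% and 13.2%, and the TATA box was in 15 of the 52 windows (28.8%) and in 2172 of all. Myh4, the sarcomere gene shown, was chosen after its values were seen, because its window holds all 4 muscle motifs.
Myh4: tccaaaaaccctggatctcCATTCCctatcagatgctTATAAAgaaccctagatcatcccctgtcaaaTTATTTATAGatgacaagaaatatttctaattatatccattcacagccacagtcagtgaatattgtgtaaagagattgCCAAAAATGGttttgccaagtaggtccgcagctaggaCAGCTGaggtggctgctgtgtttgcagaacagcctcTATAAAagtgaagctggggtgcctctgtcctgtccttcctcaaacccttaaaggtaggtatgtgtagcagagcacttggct
In this window (chr11:67237562-67237861, plus strand) the matches are, from the 5′ end, the MCAT element, a TATA box, the MEF2 motif overlapping another TATA box, the CArG box, the E-box and the last of its 3 TATA boxes. Myh4 lay at 6.63, 6.86 and 7.56 at E12.5 and at 8.95, 9.53 and 10.13 at E16.5, without overlap.

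**Figure D4:**
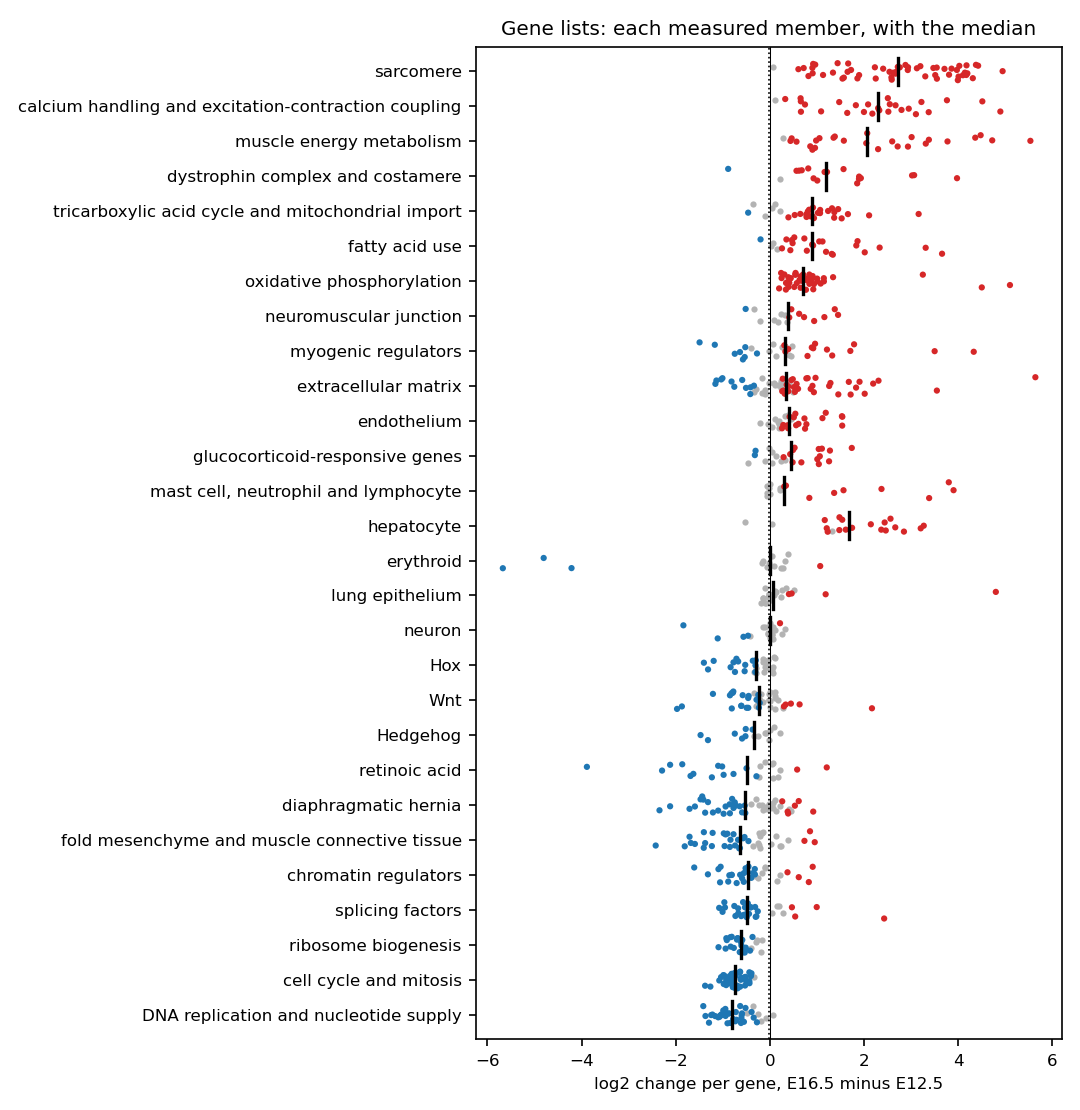
Log2 change, E16.5 minus E12.5, of each measured gene of 28 lists (points: red, rose; blue, fell; gray, adjusted p of 0.05 or more; vertical jitter only separates points), with the median of each list as a black bar and the median of all genes, -0.024, as a dotted line. Sarcomere, calcium handling and muscle energy lists lie farthest to the right, and replication, cell cycle and fold mesenchyme lists lie to the left.

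The machinery that couples the nerve impulse to contraction rose as a group. Of 27 genes of calcium handling and excitation-contraction coupling, 26 rose and 0 fell, 21 of them 2-fold or more (median 2.30). Over all genes 11.49% rose and 15.6% fell, and 3.63% rose 2-fold or more. Casq1, which stores calcium in the reticulum of fast fibers, lay at 7.02, 7.73 and 10.95 at E12.5 and at 12.28, 12.90 and 13.34 at E16.5. The highest fold was again replicate 3, and the stages did not overlap. Trdn, which ties calsequestrin to the release channel, rose by 4.51 ± 0.32, Casq2, the slow and cardiac calsequestrin, by 3.76 ± 0.37, Jph1, which holds reticulum and surface membrane together, by 3.22 ± 0.32, and the release channels Ryr3 and Ryr1 by 2.67 ± 0.088 and 2.32 ± 0.17. Atp2a1, the calcium pump of fast fibers, lay at 7.71, 9.03 and 10.97 and then 11.75, 12.54 and 13.15. The voltage sensor Cacna1s rose by 2.30 ± 0.17, its adaptor Stac3 by 1.47 ± 0.16 and the fast-fiber calcium buffer Pvalb by 2.50 ± 0.39 (a lower bound at best). The potassium channel Kcna7 was the 1 member not past the threshold (0.11 ± 0.086, adjusted p = 0.383). With E16.5 replicates 1 to 4 and 5 to 8 the median was 2.63 and 1.87.

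Genes of membrane linkage rose nearly throughout, and those of the synapse in part. Of 18 genes of the dystrophin complex and costamere, 16 rose and 1 fell (median 1.19). Dmd, dystrophin, lay at 6.27, 6.69 and 8.12 at E12.5 and at 10.59, 10.79 and 10.98 at E16.5 (3.97 ± 0.18, adjusted p = 3.15e-14). Cav3, the muscle caveolin, rose by 3.06 ± 0.16 and the dystrobrevin Dtna by 3.02 ± 0.15, while its relative Dtnb fell (-0.89 ± 0.13). Of 16 genes of the neuromuscular junction, 8 rose (50%) and 1 fell (6.25%), against 11.49% and 15.6% of all genes (median 0.39). The risers were acetylcholine receptor subunits, Chrnd (1.45 ± 0.14), the fetal Chrng (1.38 ± 0.21), Chrnb1 (1.16 ± 0.18) and Chrna1 (0.73 ± 0.23), the kinase Musk (0.94 ± 0.21), and Utrn, Colq and Prkar1a. The adult subunit Chrne stayed low at both ages (6.69, 6.87 and 7.14, then 6.75, 6.97 and 7.55; 0.088 ± 0.097, adjusted p = 0.585), and Agrn, the nerve and muscle signal that clusters receptors, fell (-0.52 ± 0.12). With E16.5 replicates 1 to 4 alone 10 junction genes were higher and with 5 to 8 alone 4, with medians of 0.54 and 0.23.

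Genes that regenerate ATP rose in each list of energy supply. In muscle energy metabolism 25 of 26 rose and 0 fell (median 2.06), 18 by 2-fold or more. Over all genes 11.49% rose and 15.6% fell, and 3.63% rose 2-fold or more. Ppp1r3a and Ckmt2 were named above; Pygm, which breaks down glycogen, lay at 7.30, 7.54 and 10.06 at E12.5 and at 11.32, 12.18 and 12.91 at E16.5, and Ckm, cytosolic creatine kinase, at 7.72, 7.94 and 10.03 and 11.30, 11.95 and 12.47. In both the stages were apart, with E12.5 replicate 3 the highest of the folds. Pkm, pyruvate kinase, was the member that missed the threshold (0.29 ± 0.11, adjusted p = 0.0503). Of 25 genes of fatty acid use 21 rose and 1 fell (median 0.90). Cd36, which takes up fatty acids, rose by 3.66 ± 0.34, Pdk4, which slows the entry of pyruvate, by 3.31 ± 0.19 (a lower bound at best), Lpl, which frees fatty acids from lipoproteins, by 2.33 ± 0.15 and the acyl dehydrogenases Acadl and Acadm by 2.01 ± 0.20 and 1.83 ± 0.22. The 1 that fell was Cpt1a, the liver form of the carnitine transferase (-0.20 ± 0.068); its call ended without E12.5 replicate 5 (adjusted p = 0.0751), E12.5 replicate 6 (0.0509) or E16.5 replicate 8 (0.0681).

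All 47 genes of oxidative phosphorylation rose, 35 without overlap, but by less (median 0.71). Of these 9 rose 2-fold or more, and the 3 largest rises were the muscle isoforms Cox8b, Cox7a1 and Cox6a2 (3.25 ± 0.21). Over all genes 11.49% rose and 15.6% fell, while 3.63% rose 2-fold or more and 4.67% rose without overlap. Among subunits without a muscle isoform, Uqcrc2 lay at 10.57, 10.78 and 11.05 and then 11.59, 11.97 and 12.14, and Ndufs1 at 9.80, 9.91 and 10.29 and then 10.69, 11.06 and 11.54. Of 29 genes of the tricarboxylic acid cycle and mitochondrial import 23 rose and 1 fell (median 0.90). Ppargc1a, the coactivator PGC-1alpha that drives mitochondrial genes, rose from 7.25, 7.78 and 8.43 to 10.66, 10.97 and 11.45 (3.16 ± 0.20, adjusted p = 7.38e-12), with all E16.5 arrays above all folds. Its partner Esrrg rose (1.36 ± 0.24), whereas Esrra had 0.21 ± 0.079 (adjusted p = 0.0531), the mitochondrial transcription factor Tfam 0.035 ± 0.17 (adjusted p = 0.917), and Nrf1, another regulator of respiratory genes, fell (-0.46 ± 0.088). Windows of respiratory subunits held an NRF1 core in 13.2% (5 of 38 windows) and an estrogen-related receptor half-site in 2.63%, against 4.80% and 3.82% of all windows. The NRF1 share is not particular to this list, as it was 16.7% for cell cycle genes and 14% for replication genes, with 0 for sarcomere genes. The respiratory windows also held the E2F core in 18.4%, against 9.32% of all windows. For the respiratory list the medians with E16.5 replicates 1 to 4 and 5 to 8 were 0.86 and 0.52, with 46 and 39 genes higher; for energy metabolism they were 2.44 and 1.78, and for fatty acid use 1.18 and 0.57.

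The balance of isoforms was measured as the log2 ratio of a muscle isoform to its broad, slow or fetal counterpart in the same array. A higher ratio is not by itself replacement of the counterpart. The counterparts Tnni1 (1.54), Tnnt1 (0.92), Tnnc1 (0.90), Atp2a2 (0.65), Slc25a5 (0.50) and Cox8a (0.41) rose too. Ckb (-0.49) and Pygb (-0.35) fell, and Hk1 (-0.009) and Ckmt1 (0.014) were not past the threshold. Probe sets differ in brightness, so the level of a ratio is not read, only its change. Of 24 pairs listed 19 had both genes measured; the ratio rose in 17, fell in 1 and was not past the threshold in 1, and in 14 the stages did not overlap. The largest shifts were in glycogen phosphorylase, Pygm over Pygb (4.71 ± 0.34), cytochrome oxidase subunit 8, Cox8b over Cox8a (4.69 ± 0.33), and mitochondrial and cytosolic creatine kinase, Ckmt2 over Ckmt1 (4.46 ± 0.32) and Ckm over Ckb (4.26 ± 0.24). Their order is not read, because Ckmt2 was under the dimmest quartile in most folds and its shift is a lower bound at best. Fast over slow troponin rose for all 3 subunits, by 3.09 ± 0.35 for Tnnt3 over Tnnt1, 2.32 ± 0.30 for Tnni2 over Tnni1 and 1.76 ± 0.18 for Tnnc2 over Tnnc1. These are lower bounds at best as well, since the fast forms were among the 20 brightest genes of most E16.5 arrays. The fast calcium pump Atp2a1 gained on Atp2a2 by 2.72 ± 0.28. Smaller shifts, with overlap, were those of the ADP/ATP carriers Slc25a4 over Slc25a5 (0.40 ± 0.12) and the hexokinases Hk2 over Hk1 (0.57 ± 0.21, adjusted p = 0.0395). The hexokinase shift differed between the E16.5 sets: the ratio was -3.58 to -3.39 in replicates 1 to 4 and -4.97 to -4.38 in 5 to 8, against a mean of -4.61 in the folds, and with 5 to 8 alone the change was 0.0088 (adjusted p = 0.985). Its call ended on removal of any of 10 single arrays (largest adjusted p 0.0911, without E16.5 replicate 4), and without E12.5 replicates 2 and 3 (0.104). For the carriers the call ended with either E16.5 set alone (0.42 and 0.39, adjusted p = 0.0647 and 0.0864). The pair that went the other way was the acetylcholine receptor, where Chrne over Chrng fell by 1.29 ± 0.21, as the fetal subunit rose and the adult one stayed dim. Mef2c over Mef2a had 0.29 ± 0.17 (adjusted p = 0.242), with a 95% interval of -0.063 to 0.65.

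**Figure D5:**
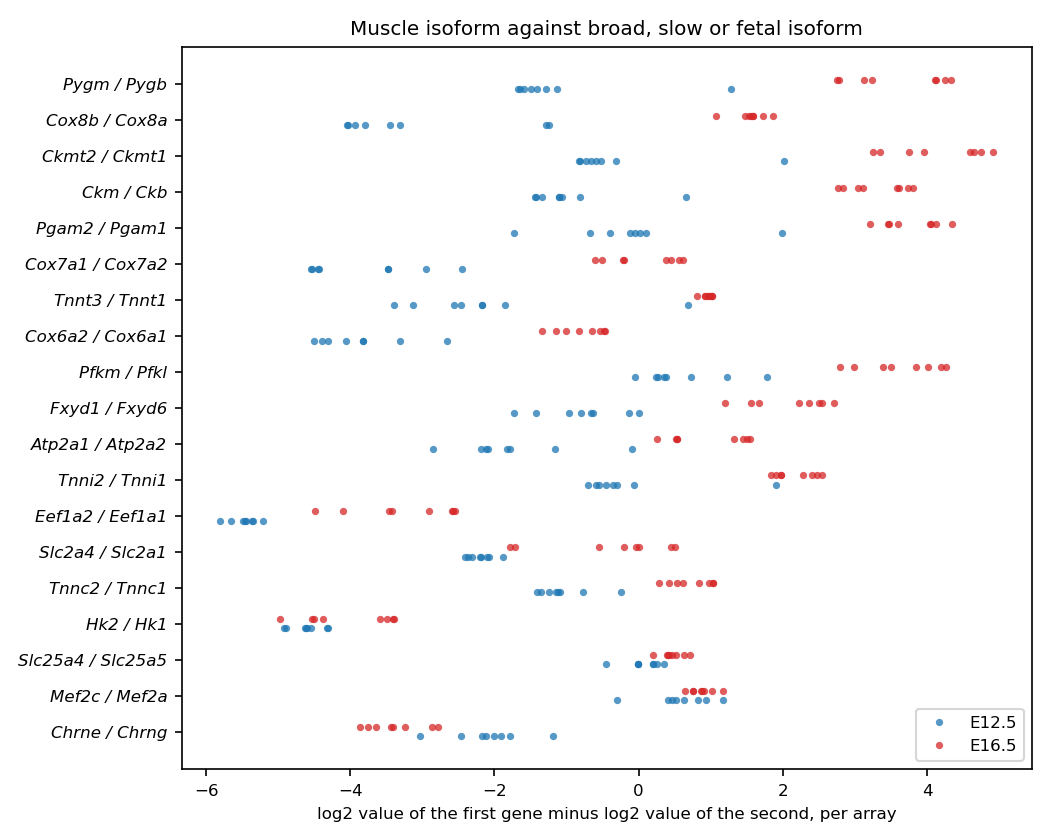
Log2 value of the first gene minus log2 value of the second in each E12.5 (blue) and E16.5 (red) array, for 19 isoform pairs ordered by the change of the mean. Only shifts between the stages can be read, not the position on the axis; Pygm over Pygb, Cox8b over Cox8a and Ckmt2 over Ckmt1 are among the largest shifts, and Chrne over Chrng moved to the left.

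Regulators of the muscle program moved both ways. In this list of 31, 13 genes rose (41.9%) and 8 fell (25.8%), with a median of 0.33, and 10 did not pass. Over all genes 11.49% rose and 15.6% fell. Myf6, the determination factor MRF4 of differentiating fibers, lay at 5.75, 6.17 and 7.78 at E12.5 and at 9.93, 10.64 and 11.19 at E16.5 (4.33 ± 0.22, a lower bound at best). Myod1 fell (-0.52 ± 0.16; 8.63, 9.39 and 10.01, then 8.74, 8.81 and 9.40, with overlap), while Myog had 0.36 ± 0.14 (adjusted p = 0.069) and Myf5 0.26 ± 0.15 (adjusted p = 0.221). Of these 4 factors of the MyoD family Myf6 rose, Myod1 fell and Myog and Myf5 did not pass. Of the progenitor factors named here, Pax7 (-0.27 ± 0.098), Eya1 (-0.75 ± 0.18) and Eya2 (-0.64 ± 0.10) fell, and Pax3 had -0.41 ± 0.19 (adjusted p = 0.115). The call for Pax7 ended when any of 9 single arrays was left out, with an adjusted p of up to 0.0899 (without E12.5 replicate 4). Inhibitors of basic helix-loop-helix factors fell, Id3 from 9.44, 9.64 and 9.95 to 7.74, 8.22 and 8.40, Id2 by 1.17 and Id1 by 0.57. The members that rose also included Klhl31 (3.498 ± 0.40), the growth inhibitor Mstn (1.79 ± 0.34), the methyltransferase Smyd1 (1.71 ± 0.21), the fusion protein Mymk (1.32 ± 0.22), and the MEF2 factors Mef2c (1.21 ± 0.17), Mef2a (0.92 ± 0.10) and Mef2d (0.89 ± 0.16). Msc, the repressor musculin, fell (-0.54 ± 0.12), and Sox6, which represses slow genes in fetal muscle, rose (0.96 ± 0.13). The splicing regulators Rbfox1 and Mbnl2 rose too: Rbfox1 lay at 6.97, 7.36 and 8.02 and then 8.72, 9.92 and 10.55, and Mbnl2 rose by 0.99 ± 0.15.

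Matrix genes moved both ways. Of 58 genes 31 rose (53.4%) and 11 fell (19%), against 11.49% and 15.6% of all genes (median 0.35). After Dpt came the small proteoglycans Aspn (3.55 ± 0.35) and Ogn (1.90 ± 0.34), the collagen Col14a1 (2.31 ± 0.17) and Mfap5 of microfibrils (2.19 ± 0.22). Lama2, the laminin chain that binds dystroglycan, lay at 8.08, 8.27 and 8.76 and then 9.82, 10.17 and 10.40. The collagens Col4a1 and Col15a1 rose by 0.90 ± 0.12 and 0.97 ± 0.12, as did Thbs4 (1.71 ± 0.15) and Col6a1 (1.29 ± 0.13). The genes that fell included Mmp2, a gelatinase (-1.16 ± 0.13), Ltbp1, which stores latent TGF-beta (-1.14 ± 0.11), the proteoglycan Vcan (-1.01 ± 0.10), Fbln1 (-0.82 ± 0.11), Mfap2 (-0.76 ± 0.096) and Fn1, fibronectin (-0.51 ± 0.076). Vcan lay at 11.26, 11.46 and 11.66 in the folds and 9.99, 10.53 and 10.85 in the diaphragm, with no overlap.

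The largest falls were in embryonic globins. Hbb-bh1 lay at 10.69, 11.99 and 12.99 at E12.5 and 5.52, 6.31 and 7.12 at E16.5 (-5.67 ± 0.29, adjusted p = 3.07e-13), Hba-x at 12.47, 12.80 and 13.32 and 7.43, 8.23 and 8.73 (-4.80 ± 0.18), and Hbb-y at 13.46, 13.53 and 13.71 and 7.81, 8.96 and 11.21 (-4.21 ± 0.40). The changes of Hbb-bh1 and Hbb-y are lower bounds at best. No fold overlapped a diaphragm in any of the 3, although E16.5 replicates 6 to 8 held more Hbb-y (10.68 to 11.21) than replicates 1 to 5 (7.81 to 9.11). These globins are those of primitive red cells, which form in the yolk sac. Of 14 erythroid genes the 3 globins were the only ones that fell, and 1, the transferrin receptor Tfrc, rose (1.07 ± 0.22). The list's shares, 21.4% lower and 7.14% higher, stand against 15.6% and 11.49% of all genes. Slc4a1, the anion exchanger of the red cell membrane, had 0.045 ± 0.28 (adjusted p = 0.939), Alas2, of red cell heme synthesis, 0.24 ± 0.15 (adjusted p = 0.28) and the regulator Gata1 -0.16 ± 0.15 (adjusted p = 0.523). Globins are close paralogs, and whether probes of one also bind another was not tested; adult globins are not analysed here.

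Among the other largest falls were genes of cell contact, guidance and growth signals. Fat3, a giant cadherin, lay at 10.88, 11.59 and 11.77 and then 6.38, 7.496 and 10.10, where the highest E16.5 value was that of replicate 6. The guidance receptors Robo1 and Unc5c fell, Robo1 from 10.77, 10.85 and 11.21 to 7.92, 8.63 and 9.37 and Unc5c from 8.65, 9.44 and 9.70 to 6.39, 6.92 and 7.22. Pdgfc, a platelet-derived growth factor, fell (-2.51 ± 0.16), and Hgf, hepatocyte growth factor, which guides muscle precursors into the diaphragm, lay at 8.45, 8.99 and 9.72 and then 6.02, 6.55 and 7.17. Rimklb, an enzyme that joins glutamate to other amino acids (-3.47 ± 0.23, a lower bound at best), Tmtc2 of the endoplasmic reticulum (-2.99 ± 0.17), the phosphodiesterase-like Mpped2 (-2.96 ± 0.21) and the imprinted Nnat (-2.30 ± 0.12) were also among the 15. In all of these the 16 arrays separated by stage.

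The promoter windows of Mpped2 and Pdgfc are those of the largest falls that meet the same motif rule.
Mpped2: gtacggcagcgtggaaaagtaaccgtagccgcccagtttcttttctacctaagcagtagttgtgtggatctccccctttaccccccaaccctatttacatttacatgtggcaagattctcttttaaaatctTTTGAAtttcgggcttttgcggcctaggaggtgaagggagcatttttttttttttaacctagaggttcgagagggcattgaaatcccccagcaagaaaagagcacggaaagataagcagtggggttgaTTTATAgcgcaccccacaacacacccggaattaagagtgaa
Pdgfc: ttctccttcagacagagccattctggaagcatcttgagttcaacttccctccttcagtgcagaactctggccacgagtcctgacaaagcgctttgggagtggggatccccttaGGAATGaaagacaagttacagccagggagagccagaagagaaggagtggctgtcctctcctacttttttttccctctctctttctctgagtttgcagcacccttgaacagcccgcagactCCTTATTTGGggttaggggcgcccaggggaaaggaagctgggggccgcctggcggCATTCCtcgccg
The Mpped2 window (chr2:106694562-106694861, plus strand) holds 1 CHR element and 1 TATA box on the opposite strand. The Pdgfc window (chr3:81036166-81036465, plus strand) holds 2 MCAT elements and a CArG box, motifs counted above among sarcomere genes, although Pdgfc fell. Over all genes that rose 2-fold or more, CArG was in 3.48% of windows and MEF2 in 6.83%; over those that fell as much the shares were 1.48% and 0.89%.

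Genes of cell division fell nearly throughout. Of 45 genes of cell cycle and mitosis 0 rose and 42 fell (median -0.73), and of 40 genes of DNA replication and nucleotide supply 0 rose and 34 fell (median -0.81). Of the first 4 and of the second 11 fell 2-fold or more. Over all genes 11.49% rose and 15.6% fell, and 1.76% fell 2-fold or more. The spindle checkpoint kinase Bub1 lay at 10.22, 10.47 and 10.66 and then 8.24, 9.16 and 9.84, and Plk1, a kinase of mitotic entry, at 9.49, 9.70 and 9.93 and then 8.39, 8.70 and 9.17. Mki67, a common marker of dividing cells, was lower by less (-0.40 ± 0.15), with overlap; its call ended on removal of any of 11 single arrays (largest adjusted p 0.104, without E16.5 replicate 4), and with E16.5 replicates 5 to 8 alone its change was 0.017. In replication, the chromatin assembly subunit Chaf1b fell from 8.24, 8.79 and 9.17 to 6.88, 7.41 and 7.62, Uhrf1, which keeps DNA methylation through replication, from 10.43, 10.81 and 11.20 to 9.11, 9.64 and 9.94, and the helicase subunits Mcm4 (-1.22 ± 0.18), Mcm6 (-1.097 ± 0.13) and Mcm3 (-1.03 ± 0.094) fell too. The cyclin Ccnd2 fell as well (-1.48 ± 0.084), while the cell cycle brake Rb1 rose (1.30 ± 0.21). The E16.5 sets differed here. With replicates 1 to 4 alone 43 cell cycle genes were lower (median -0.91) and with 5 to 8 alone 27 (median -0.52); for replication the counts of lower genes were 35 and 23.

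Windows of the cell division lists held the motifs known from cell cycle promoters. CHR, the element through which cell cycle genes are repressed in resting cells, was in 72.2% of 36 windows of cell cycle genes against 14.8% of all windows, and CCAAT, bound by NF-Y, in 72.2% against 37.4%. The E2F core was in 51.2% of 43 windows of replication genes against 9.32%, and in 13.9% of cell cycle windows. The genes shown, Top2a, which untangles DNA before mitosis, and Mcm3 were chosen after their values were seen, because their windows hold several matches of CHR with CCAAT and of the E2F core.
Top2a: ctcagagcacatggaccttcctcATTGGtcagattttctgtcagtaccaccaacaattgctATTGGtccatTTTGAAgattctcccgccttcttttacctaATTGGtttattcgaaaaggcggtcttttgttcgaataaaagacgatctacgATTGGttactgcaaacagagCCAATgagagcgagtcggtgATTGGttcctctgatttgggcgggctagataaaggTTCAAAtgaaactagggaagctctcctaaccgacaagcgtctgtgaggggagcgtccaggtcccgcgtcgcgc
Mcm3: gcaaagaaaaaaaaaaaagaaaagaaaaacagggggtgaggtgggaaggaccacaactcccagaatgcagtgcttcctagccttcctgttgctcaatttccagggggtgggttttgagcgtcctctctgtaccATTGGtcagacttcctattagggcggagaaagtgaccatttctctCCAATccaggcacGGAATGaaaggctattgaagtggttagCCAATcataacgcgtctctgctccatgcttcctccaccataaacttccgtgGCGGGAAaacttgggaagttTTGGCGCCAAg
The Top2a window (chr11:99024140-99024439, minus strand) holds 6 CCAAT boxes and 2 CHR elements, none overlapping. The Mcm3 window (chr1:20820263-20820562, minus strand) holds 3 matches of the E2F core, of which 2 overlap in opposite directions, 3 CCAAT boxes and an MCAT element. Top2a lay at 11.502, 11.61 and 11.69 at E12.5 and 10.47, 10.89 and 11.37 at E16.5, and Mcm3 at 9.13, 9.35 and 9.73 and 8.04, 8.27 and 8.66.

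Genes of growing and immature cells fell with them. Of 26 ribosome biogenesis genes 0 rose and 21 fell (median -0.61), led by Fbl, the methyltransferase of ribosomal RNA, which lay at 11.75, 11.91 and 11.97 and then 10.37, 10.86 and 11.25. The growth regulator Myc also fell (-1.18 ± 0.13). Of 33 splicing factors 4 rose and 25 fell (median -0.48), among them Ptbp1, which blocks muscle and neuronal exons (-0.97 ± 0.094), and the risers were Rbfox1, Mbnl2, Rbm24 (0.54 ± 0.14) and Rbm20 (0.47 ± 0.11). Of 32 chromatin regulators 4 rose and 21 fell: Chd3, a remodeler of the NuRD complex, lay at 10.09, 10.27 and 10.36 and then 8.19, 8.72 and 8.92, and the Polycomb methyltransferase Ezh2 at 11.15, 11.49 and 11.62 and then 9.97, 10.40 and 10.87. Hdac9 (0.91 ± 0.11), Tet2 (0.83 ± 0.12), Smarcd3 (0.61 ± 0.14), a remodeler subunit of muscle, and Hdac5 (0.37 ± 0.11) rose. Falls made up 80.8% of the ribosome list, 75.8% of the splicing list and 65.6% of the chromatin list, against 15.6% of all genes. Rises among splicing factors (12.1%) and among chromatin regulators had shares near that of all genes (11.49%). The number of risers in these lists therefore does not stand out.

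In the fetal RNA-binding and heterochronic list all changed genes fell, 37.5% of the list against 15.6% of all genes. These were 6 of 16 (median -0.16): Hmga2, a chromatin protein of embryonic cells, from 10.41, 10.81 and 11.22 to 7.38, 8.30 and 8.95, the RNA-binding proteins Igf2bp1 (-1.76 ± 0.15) and Igf2bp3 (-0.85 ± 0.13), Lin28b, which blocks maturation of let-7 microRNAs (-0.79 ± 0.21, a lower bound at best), Zcchc3 and Arid3b. Lin28a had -0.086 ± 0.091 (adjusted p = 0.568), Trim71 -0.067 ± 0.072 (adjusted p = 0.571) and Sall4 0.08 ± 0.071 (adjusted p = 0.475). The call for Arid3b ended when any of 11 single arrays was left out, with an adjusted p of up to 0.0926 (without E12.5 replicate 2).

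The mesenchymal program of the fold was lower at E16.5. Of 40 genes of fold mesenchyme and muscle connective tissue 3 rose (7.5%) and 24 fell (60%, median -0.64), 15 of the falls without overlap. Over all genes 11.49% rose and 15.6% fell, and 5.36% fell without overlap. Twist1, a mesenchymal basic helix-loop-helix factor, lay at 8.98, 9.29 and 9.59 and then 6.86, 7.52 and 8.08 (-1.81 ± 0.14, adjusted p = 5.23e-10), Pdgfra, the receptor of connective tissue fibroblasts, at 10.61, 10.84 and 11.25 and 8.68, 9.45 and 9.50, and Tbx5, the limb and fold factor, at 7.86, 8.53 and 9.09 and 6.21, 6.71 and 7.44. Osr1 (-1.40 ± 0.22), Foxc2 (-1.68 ± 0.30), Foxf1 (-1.41 ± 0.33) and Lhx2 (-1.22 ± 0.19) fell as well. The 3 that rose were Prrx1 (0.95 ± 0.21), Meox2 (0.85 ± 0.24) and Shox2 (0.73 ± 0.14, a lower bound at best). Tcf4 had 0.22 ± 0.11 (adjusted p = 0.154), whereas Tcf7l2, which encodes the connective tissue marker often called TCF4, fell (-0.65 ± 0.15). The median was -0.64 with E16.5 replicates 1 to 4 alone and -0.57 with 5 to 8 alone.

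Retinoic acid genes fell at several steps of the pathway. Retinoic acid, made from vitamin A, acts through nuclear receptors, and its lack in the fold is a known cause of diaphragm defects in rodents. Of 23 genes 2 rose (8.7%) and 13 fell (56.5%, median -0.50), 9 of the falls 2-fold or more. Over all genes 11.49% rose and 15.6% fell, and 1.76% fell 2-fold or more. The binding protein Crabp2, which delivers retinoic acid to its receptors, lay at 11.73, 12.23 and 12.30 and then 7.84, 8.12 and 9.52 (-3.89 ± 0.18, adjusted p = 8.14e-14), and Crabp1 at 11.83, 12.38 and 12.62 and then 8.63, 9.99 and 11.12. Neither overlapped, and the E16.5 values of Crabp1 were lowest in replicate 1 (8.63) and highest in replicate 8 (11.12). The synthesis enzymes Aldh1a2 (7.62, 10.32 and 10.93, then 6.60, 8.21 and 8.82) and Rdh10 (9.81, 10.12 and 10.71, then 7.31, 8.43 and 9.32) fell (-2.12 ± 0.35 and -1.86 ± 0.26); a low E12.5 value of Aldh1a2, in replicate 4, overlapped E16.5. The uptake receptor Stra6 (-0.98 ± 0.098), the receptor Rarb, itself a target (-1.099 ± 0.23), the reductase Dhrs3 (-1.01 ± 0.13), and the targets Meis1 (-1.63 ± 0.10), Meis2 (-1.69 ± 0.15), Nr2f1 (-1.23 ± 0.16, a lower bound at best) and Nr2f2 (-0.77 ± 0.13) fell too. Of the degrading enzymes Cyp26a1 fell (-0.50 ± 0.12, a lower bound at best), while Cyp26b1 had 0.061 ± 0.063 (adjusted p = 0.552). The 2 that rose were Rxrg (0.58 ± 0.19) and Rbp4, the plasma carrier of retinol, which is also made by liver (1.21 ± 0.42); with the hepatocyte mean as a covariate Rbp4 had a change of -0.44. The call of Rbp4 ended on removal of any of 9 single arrays (largest adjusted p 0.0771, without E12.5 replicate 7) and that of Rxrg on removal of E12.5 replicate 2 or of E16.5 replicate 1, 2 or 4 (0.0614, 0.0639, 0.0548 and 0.0641).

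Genes linked to diaphragmatic hernia were lower at E16.5 more often than higher. In this list of 46, 24 genes fell (52.2%), 6 rose (13%) and 16 did not pass (median -0.53). Over all genes 15.6% fell and 11.49% rose, so the share of rises was near that of all genes. Free of overlap were 15 falls and 1 rise, where all genes had 5.36% and 4.67%. The list shares genes with the retinoic acid, fold and Hedgehog lists. Among transcription factors, Wt1 (-1.44 ± 0.13), Gata6 (-1.38 ± 0.17), Gata4 (-0.94 ± 0.14), its cofactor Zfpm2 (-0.85 ± 0.18) and Hlx (-0.86 ± 0.15) fell. Among signals and receptors, Robo1 and Pdgfra were named above, and Gli3 (8.72, 9.06 and 9.46, then 7.12, 7.78 and 7.99), Fzd2 (-1.21 ± 0.12), Gpc3, a proteoglycan that restrains growth signals (11.57, 11.997 and 12.16, then 10.43, 10.62 and 10.97), Slit3 (-0.64 ± 0.12) and Efnb1 (-0.73 ± 0.16) fell. Of the FRAS1 complex, which anchors epithelium to mesenchyme, Frem1 (-1.41 ± 0.24) and Fras1 (-0.80 ± 0.12) fell and Frem2 had -0.29 ± 0.16 (adjusted p = 0.196). The genes that rose were Mef2a, Fgfrl1 (0.61 ± 0.12), which is needed for slow fibers of the diaphragm, the collagen crosslinker Lox (0.53 ± 0.17), Col3a1 (0.26 ± 0.096) and, of endothelium, Sox17 (0.39 ± 0.11) and Robo4 (0.38 ± 0.13). The call of Lox ended without E12.5 replicate 6, E16.5 replicate 5 or E16.5 replicate 7 (adjusted p = 0.0583, 0.0526 and 0.0602), that of Col3a1 without any of 10 single arrays (up to 0.0972, E12.5 replicate 2) and that of Robo4 without any of 8 (up to 0.0898, E16.5 replicate 2). The median was -0.49 and -0.52 in the E16.5 sets.

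Patterning genes were lower in part. Of 30 Hox genes 0 rose and 14 fell (median -0.30): Hoxa5, which is active in the folds and the thoracic mesenchyme, lay at 9.44, 10.02 and 10.31 and then 7.93, 8.69 and 9.25, and Hoxa2 (-1.40 ± 0.19) and Hoxc5 (-1.19 ± 0.21) fell. The E16.5 sets gave 9 and 8 lower Hox genes. Of 15 Hedgehog genes 0 rose and 7 fell, the effectors Gli3, Gli2 (-0.75 ± 0.11) and Gli1 (-0.37 ± 0.084) and the receptor component Smo (-0.51 ± 0.10) among them, while the ligands Shh, Ihh and Dhh had changes of 0.005, -0.10 and 0.083, none past the threshold. Of 43 Wnt genes 5 rose and 19 fell (median -0.23). Sfrp1, which binds Wnts, lay at 10.54, 10.86 and 11.01 and then 8.28, 8.93 and 9.59, the receptor Fzd3 fell (-1.87 ± 0.20), and Frzb, a relative of Sfrp1, rose (2.17 ± 0.35), as did the feedback target Axin2 (0.63 ± 0.13). Of 31 Tgf-beta and Bmp genes 1 rose and 12 fell, led by Gdf10 (-1.73 ± 0.14) and Tgfb2 (10.69, 11.02 and 11.39, then 9.32, 9.52 and 9.72). The backgrounds for these counts are 11.49% higher and 15.6% lower.

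Small heat shock proteins and glucocorticoid-responsive genes were higher. The 6 small heat shock proteins listed, chaperones of muscle, all rose, Hspb7 by 2.83 ± 0.28, Hspb8 by 2.76 ± 0.16, Hspb2 by 2.58 ± 0.27, Hspb1 by 2.54 ± 0.23, Hspb6 by 2.52 ± 0.23 and Hspb3 by 2.31 ± 0.15, while the general chaperones Hsp90aa1 (-0.54 ± 0.096) and Hsph1 (-0.44 ± 0.087) fell. Of 24 glucocorticoid-responsive genes 14 rose (58.3%) and 2 fell (8.33%), against 11.49% and 15.6% of all genes (median 0.46). The receptor Nr3c1 itself lay at 6.93, 7.53 and 7.79 and then 8.52, 8.69 and 9.13, with no overlap, and Zbtb16 (1.06 ± 0.25), Dusp1 (1.104 ± 0.19), Tsc22d3 (0.52 ± 0.097) and Lcn2, which neutrophils also make (1.74 ± 0.23), rose. Classical targets did not all move: Fkbp5 had -0.022 ± 0.24 (adjusted p = 0.966) and Sgk1 0.24 ± 0.17 (adjusted p = 0.343). With E16.5 replicates 1 to 4 alone 16 of the list were higher (median 0.65) and with 5 to 8 alone 8 (median 0.22). Fkbp5 passed the threshold in opposite directions, at 0.60 with the first set (adjusted p = 0.0275) and -0.64 with the second (adjusted p = 0.0284).

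Markers of several other cells and tissues moved with the stage, and their part in the results above was not tested. The counts stand against 11.49% higher and 15.6% lower over all genes. Endothelial genes rose in 17 of 28 (median 0.40), with Pecam1 at 7.47, 8.51 and 8.88 and then 9.42, 9.99 and 10.44; with replicates 1 to 4 of E16.5 alone 21 were higher and with 5 to 8 alone 6. Neutrophil genes were among the larger rises: S100a8 lay at 5.69, 7.53 and 8.62 and then 10.17, 11.48 and 12.09, and S100a9, Ngp and Camp rose by 3.80 ± 0.29, 3.38 ± 0.34 (a lower bound at best) and 2.37 ± 0.26, without overlap. In all 9 of 17 genes of mast cells, neutrophils and lymphocytes rose. Of 26 macrophage genes 7 rose, led by Lyz2 (2.30 ± 0.29), which neutrophils share, while Csf1r had 0.31 ± 0.12 (adjusted p = 0.0618). Liver genes rose in 17 of 20 (median 1.68), 0 of them without overlap, Alb from 8.30, 10.32 and 13.32 to 11.53, 13.06 and 13.22. Without E12.5 replicates 2 and 3 the liver median was 2.06, and with the hepatocyte mean of each array as a covariate 3779 genes changed in all. In the lung epithelium list Sftpc lay at 5.59, 5.83 and 6.10 and then 8.001, 11.18 and 12.73. Of its 22 genes 4 rose, the others being Hopx (1.18 ± 0.12, a lower bound at best), Rtkn2 (0.46 ± 0.12) and Cdh1 (0.40 ± 0.10), and Nkx2-1 (0.0034), Sftpb (0.1), Epcam (-0.10) and Foxa2 (-0.012) were not past the threshold. Of 16 cardiomyocyte genes 5 rose, all but Myh6 and Kcnj3 (0.71 ± 0.12 and 0.70 ± 0.10) also genes of developing skeletal muscle, and the atrial Myl7 and Nkx2-5 had changes of -0.49 and -0.087, not past the threshold. Neuronal genes rose in 1 and fell in 4 of 23 (4.35% and 17.4%), with a share of falls near that over all genes; the axon genes Nefm (7.56, 7.88 and 8.67, then 5.65, 5.88 and 7.77) and Gap43 (-1.11 ± 0.17) fell, while Stmn2 (0.0081) and Nefl (-0.42) were not past the threshold.

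Some single changes differed between the E16.5 sets. With replicates 5 to 8 alone the calls of 29 of the 261 genes named here as changed ended, in a fit that holds fewer arrays. Of muscle and its synapse, the changes not past the threshold were then Musk 0.67, Chrna1 0.64, Prkar1a 0.19, Colq 0.41, Msc -0.42, Hk2 0.063, Rbm24 0.24 and Smarcd3 0.39. They were also Hdac5 0.18, Actc1 0.79, Tnnc1 0.96, Pax7 -0.24, Rxrg 0.25, Slc25a5 0.36 and Pygb -0.27, of which Actc1 and Tnnc1 lay close to their changes with all arrays (0.82 and 0.90). Among fold and connective tissue genes the values were Meox2 0.54, Prrx1 0.74, Foxf1 -1.15, Col3a1 0.30 and Fgfrl1 0.34, and in endothelium Robo4 0.065 and Sox17 0.25. The remaining ones were Axin2 0.33, Zbtb16 0.62, Lin28b -0.54, Arid3b -0.25, Cpt1a -0.22, Cdh1 0.27 and Mki67 0.017. Other genes kept the call with replicates 5 to 8 alone but with a change that moved by over 1.5 times. Genes of the muscle fiber were among them: Pvalb had 3.77 with replicates 1 to 4 and 1.24 with 5 to 8, Myh1 3.21 and 1.28, and Myh2 1.94 and 0.73. For Mstn the values were 2.59 and 0.98, for Mef2d 1.25 and 0.53, for Rbm20 0.63 and 0.31, for Frzb 3.10 and 1.23, for Igfbp6 of the insulin-like growth factor list 1.596 and 0.71, for Dusp1 1.53 and 0.67, and for Tsc22d3 0.75 and 0.30. Top2a (-1.06 and -0.31), Mcm4 (-1.68 and -0.77) and Hsp90aa1 (-0.81 and -0.27) were lower by less in the second set, as the cell division lists were. Frem1 (-1.90 and -0.93) and Shox2 (0.99 and 0.47) are the others.

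With replicates 1 to 4 alone 9 calls ended, those of Agrn (-0.36), Arid3b (-0.19), Col3a1 (0.23), Cpt1a (-0.17), Lox (0.33), Myod1 (-0.45), Pax7 (-0.31), Rbp4 (0.93) and Tnnc1 (0.85). Fkbp5 aside, the genes named as not past the threshold that passed in this set were Esrra (0.30), Pkm (0.48), the fat cell regulator Pparg (0.49) and Sgk1 (0.56). Without E12.5 replicates 2 and 3 the calls of Arid3b, Col3a1, Hk2, Lox, Mki67, Robo4 and Rxrg ended and Nefl passed (-0.54), and no change of a gene named as changed moved by over 1.5 times. With the hepatocyte mean as a covariate 21 calls ended, among them those of Alb (0.58) and Rbp4. Alb is a liver gene of the list that gives this mean, so the end of its call is no independent result. The others were those of Agrn (-0.21), Arid3b (-0.24), Cdh1 (0.31), Ckb (-0.32), Cpt1a (-0.16), the fat cell factor Ebf2 (-0.74), Gli1 (-0.23), Hprt (0.69), Lox (0.61) and Msc (-0.43). They also held those of Myod1 (-0.23), Pax7 (-0.26), Prkar1a (0.45), Pygb (-0.35), Robo4 (0.49), Slc25a5 (0.34), Tcf7l2 (-0.49), Tfrc (0.59) and Zbtb16 (0.83). Of the genes named as not past the threshold, Myog (0.64), Gata1 (-0.55), Esrra (0.32) and Tcf4 (0.39) passed under that covariate.

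Genes often taken as a constant reference did not all hold still. Among 14 of them 5 rose and 6 fell, and 3 did not pass. Actb, cytoplasmic actin, lay at 13.29, 13.38 and 13.42 and then 12.496, 12.68 and 12.86 (-0.69 ± 0.056, a lower bound at best), Hprt rose by 0.93 ± 0.22 and Sdha by 0.91 ± 0.11. Those not past the threshold were Gusb, Rps18 and Eef1a1, with changes of 0.19, -0.0048 and -0.068. The Y-linked Eif2s3y was bright in 4 of 8 E12.5 arrays and in 3 of 8 E16.5 arrays, so arrays with Y-linked signal were not balanced between the stages. With its value as a covariate 5279 genes changed. The bright E16.5 arrays were replicates 1 to 3 (9.08 to 9.99), while replicate 4 (4.54) and replicates 5 to 8 (4.15 to 4.43) were dim. Y-linked signal thus differed between the E16.5 sets, and its part in their differences was not tested.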

How the data were processed

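Mouse gene arrays were hybridised with RNA amplified from laser-captured tissue (PicoPure extraction, NuGEN WT-Ovation Pico amplification, per the labels' protocols). The authors deposited 1 table of 24 arrays with 24200 probe sets. Its values are normalized log2 intensities: RMA, Affymetrix Expression Console 1.1 and R 2.9.2 are named in the submitters' processing notes, while the log base is read from the range of the deposited values (2.56 to 14.1, array medians 7.44 to 7.55) and joint normalization of all arrays is not stated. They were used as deposited, so any correction that RMA made for differing overall RNA content is part of them. Their number, 8 arrays a stage, limits the precision.

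Of the probe sets 20760 carried 1 gene symbol, 1140 several and 2300 none in the platform annotation. Where more than 1 probe set stood for a gene (804 genes), only the brightest on average was kept, which left 19351 genes. A linear model with 1 mean per stage was fitted to all 24 arrays with limma 3.58.1 in R 4.3.3 (lmFit, eBayes), and the E16.5 minus E12.5 contrast was adjusted by Benjamini-Hochberg over all genes, with 0.05 as threshold. The script was tested on simulated data. The 2-fold counts use a log2 change of 1 or more. Isoform pairs were tested as log2 ratios in the same model. Figures and tables were made with Python 3.11.15, pandas 2.3.3, numpy 2.4.6 and matplotlib 3.10.9.

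The comparison and the 53 gene lists (1375 entries, 80 not matched to a measured gene) were chosen with earlier results of these data known. Leading genes were named by rule: the 15 largest rises and falls without overlap that carry a gene name, and up to 4 largest rises and falls of each list, with any member of the hernia, myogenic, heterochronic, glucocorticoid, retinoic acid, reference and sex-linked lists open to naming. Other genes, and the windows of Myh4, Top2a and Mcm3, were chosen after their values were seen. Promoter windows (RefSeq, GRCm38.p6) were held for 15436 of the 19351 genes.

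Same-numbered arrays of both stages did not deviate together (correlations of -0.036 to 0.093 of their deviations from the stage means), so the numbers were not used as pairs. The alternatives covered the samples fitted, a replicate block, normalization, dim genes, the probe set kept, the moderation, array weights, a minimum change, arrays that stand apart, liver and Y-linked signal as covariates and each array left out.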

Additional observations from a re-analysis of the deposited data

Results flagged for a closer look

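In 716 sets of 8 arrays (each gene named above and each list mean, at each stage) 82 had 1 array far from the other 7, by the gap to its nearest neighbor over the whole range (past Dixon's limit). Chance alone flags about 1 in 20 sets, and genes and lists share the same arrays. The values below are log2 intensities of the array that stood apart; why it did was not tested. E12.5 replicate 3 was apart most often, always as the highest fold: Ampd1 (9.861), Atp1b4 (10.68), Casq1 (10.94), Ckm (10.03), Ckmt2 (8.581), Cmya5 (8.441), Dmd (8.124), Dpt (9.84), Dtna (8.467), Hspb2 (10.81), Klhl40 (8.703), Lama2 (8.764), Lmod2 (8.114), Mettl21e (8.619), Mfap5 (8.027), Mybpc1 (11.09), Myf6 (7.777), Myh8 (12.34), Pdk4 (6.368), Ppp1r3a (7.913), Pygm (10.06), Rbm24 (9.512), Tnni2 (12.65), Tnnt3 (13.2), list mean of muscle energy metabolism (9.204) and list mean of immediate early and heat shock (8.59). E12.5 replicate 2 was the lowest fold for Actc1 (11.42), Agrn (7.966), Chrnb1 (7.24), Fat3 (10.88), Klhl31 (6.484), Meox2 (7.162), Myh3 (7.724), Myog (9.714), Rps18 (13.38), Tnni1 (8.595), list mean of neuromuscular junction (7.613), list mean of tendon (7.2), list mean of fibroblast growth factors (7.48), list mean of Tgf-beta and Bmp (8.348) and list mean of insulin-like growth factors (9.371), and the highest for Lin28b (8.686), list mean of DNA replication and nucleotide supply (9.534), list mean of glucocorticoid-responsive genes (8.497), list mean of complement (7.932), list mean of lymphatic endothelium (8.129), list mean of erythroid (10.39) and list mean of reference genes (11.66).

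Single other arrays stood apart less often. E12.5 replicate 4 was lowest for Aldh1a2 (7.618), Fras1 (8.378) and Tmtc2 (9.105). E12.5 replicate 5 was highest for Myl7 (9.376). E12.5 replicate 6 was lowest for Foxa2 (7.076). E12.5 replicate 8 was highest for Pygb (9.21). E16.5 replicate 1 was highest for Myod1 (9.399) and Shox2 (7.087). E16.5 replicate 3 was lowest for Tnnc1 (12.7) and highest for Chrne (7.547). E16.5 replicate 4 was lowest for Alb (11.53), Dtnb (7.356), Lin28a (7.431) and Pax7 (7.354) and highest for Arid3b (7.296), Nefm (7.774), Rbm20 (8.434) and list mean of antigen presentation and interferon (8.14). E16.5 replicate 5 was highest for Rimklb (7.426). E16.5 replicate 6 was highest for Col3a1 (10.55) and Crabp2 (9.523). E16.5 replicate 7 was lowest for Hspb2 (10.97). E16.5 replicate 8 was lowest for Aspn (11.31), Cox8b (12.14), Cpt1a (7.633), Dpt (10.96), Mfap5 (7.892), Nr1d2 (8.247), Prrx1 (9.08) and list mean of Hox (7.152) and highest for Gdf10 (8.919), Myc (9.584), list mean of splicing factors (10.82) and list mean of cardiomyocyte (8.669).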

How the results depend on the processing

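Of 261 genes named above as changed, 169 passed the threshold with the same direction under each of the 33 alternatives that could test them, and 92 lost the call under at least 1. The counts of changed genes stayed within 1.5 times the main counts except under the following. A minimum change of 1.5-fold (limma's treat) left 803 changed genes, 545 higher and 258 lower, with 227 lower by 2-fold or more. With E16.5 replicates 1 to 4 alone 530 genes were lower by 2-fold or more, and with replicates 5 to 8 alone 3479 changed and 1945 were lower; these fits hold fewer arrays. With the replicate block 5046 genes changed, and every same-numbered pair correlated under 0.1. Leaving out each array in turn gave 4876 to 5258 changed genes. Among the 261 genes, 2 changed sign under some alternative, Rbp4 with the hepatocyte mean as a covariate (-0.44) and Mki67 with E16.5 replicates 5 to 8 alone (0.017). Of the 44 genes named as not past the threshold 20 did, and 1 of these passed the threshold with the other sign, Fkbp5 with replicates 1 to 4 alone (0.60, against -0.64 with 5 to 8 alone); the cause was not tested. The isoform pairs were refitted without arrays that stand apart and without each array, alternatives chosen after seeing the data; besides the hexokinase and carrier pairs described above, no pair lost its call. Of the genes named as not past the threshold, 12 passed under at least 1 alternative, Esrra, Csf1r and Pkm among them under median centring (0.22, 0.32 and 0.30). Centring on the 75th percentile moved the median of all genes to 0.025, with 2547 genes higher and 2457 lower. Lists whose median changed sign under some alternative were those of fibroblast growth factors, insulin-like growth factors, hypoxia, fat cells, erythroid cells, hepatocytes, lung, neurons, Schwann cells, cartilage, reference genes and sex-linked genes. For hepatocytes the only such alternative was their own mean as a covariate (-0.109), which removes their shared change by construction.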

Other observations

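Lists outside the comparison's main groups moved less uniformly; over all genes 11.49% rose and 15.6% fell. Among 20 imprinted genes, expressed from 1 parental copy, 9 rose and 3 fell. Zdbf2 lay at 9.62, 9.84 and 10.62 at E12.5 and at 11.69, 11.95 and 12.21 at E16.5, Rtl1 and the long RNA Meg3, of the same imprinted region, rose by 1.55 ± 0.13 and 1.13 ± 0.14, Ndn rose by 0.76 ± 0.10, and Nnat was among the largest falls. Among 15 genes of insulin-like growth factors 7 rose and 3 fell. The binding proteins divided: Igfbp7 lay at 7.93, 8.10 and 8.61 and then 9.32, 10.28 and 11.14, and Igfbp6 rose by 1.15 ± 0.16, while Igfbp5 (-1.32 ± 0.12) and Igfbp4 (-0.71 ± 0.14) fell. Among 10 thyroid hormone genes 5 rose and 0 fell, with Dio2, which activates the hormone, up by 1.21 ± 0.11 and the responsive gene Thrsp, at 7.38, 7.58 and 9.81 and then 10.04, 11.23 and 11.92, up by 3.25 ± 0.30. Among 17 clock genes 8 rose and 0 fell, led by Bhlhe40 (1.40 ± 0.20, a lower bound at best) and Nr1d2 (1.03 ± 0.14), while the core genes Clock and Arntl had changes of 0.39 and 0.17, not past the threshold; the hour of tissue collection is not stated.

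In protein turnover 11 of 27 genes rose and 1 fell, and the leading ones were muscle adaptors of ubiquitin ligases, Klhl41 (2.95 ± 0.36) and Klhl40 (2.44 ± 0.20). Among 19 genes of fat cells 5 rose and 4 fell: Fabp4, which endothelium also makes, lay at 7.395, 8.64 and 9.59 and then 10.93, 11.15 and 11.41, while the fat cell regulator Pparg had 0.28 ± 0.13 (adjusted p = 0.122) and Scd1, Ebf2 and Fasn fell (-1.002 ± 0.23, -0.997 ± 0.22 and -0.84 ± 0.077). In the pericyte and smooth muscle list 8 of 16 rose and 2 fell; Abcc9, of a potassium channel that muscle also holds, rose by 2.48 ± 0.13, and Acta2 and Cnn1 had changes of 0.14 and -0.11, not past the threshold. Of the hypoxia targets 3 of 19 rose and 6 fell, with Pfkfb3 lowest (-1.21 ± 0.17). Counts of genes that rose and fell were 5 and 5 of 22 for fibroblast growth factors, 2 and 4 of 21 for Notch, 5 and 2 of 13 for cell cycle exit, and 3 and 7 of 22 for mesothelium. They were 5 and 1 of 15 for tendon, 2 and 2 of 19 for cartilage and bone, and 1 and 2 of 12 for Schwann cells. The shares were near those of all genes for Notch (9.52% higher and 19% lower), Schwann cells (8.33% and 16.7%) and cartilage and bone (10.5% each way). The largest rise of the tendon list was Chodl (3.47 ± 0.32) and the largest fall of the cartilage list Sox9 (-0.92 ± 0.11), with Col2a1, the main cartilage collagen, at -0.12 ± 0.067 (adjusted p = 0.19).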
